A study of Homo sapiens with 46 samples.

Results

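COX1 silencing was compared with the pCox4 control in 8 RNA-seq libraries, 4 of each, out of 46 libraries of 12 conditions in the series. The members were chosen by their labels alone: all libraries labelled COX1 and all control libraries, with every gene that passed the filter on low counts. HEK293T cells, a human embryonic kidney line (in the study a HEK293-Flp-In T-Rex line), were transfected for 48 hours. The COX1 libraries come from cells that received 2 µM of a chimera against the COX1 mRNA, that is, a morpholino (an uncharged antisense oligomer) joined to pCox4, the presequence of yeast Cox4, which carries it to the mitochondrial matrix. Controls were given pCox4 alone, in the buffer of the click reaction and without a morpholino, so a chimera with a morpholino that has no target is not among the controls. Replicates 1 and 2 of each condition form batch 1 and replicates 3 and 4 form batch 2, prepared on different days with different reagents. The study calls the replicates biological and the labels only number them, so p-values measure the spread between these samples of a single cell line. Libraries were made from poly(A)-selected RNA, and mtDNA tRNAs and rRNAs were therefore captured only as far as they were adenylated or joined to adenylated RNA.

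The 4 COX1 libraries held 18876395 to 23557937 counts and the 4 control libraries 19944731 to 22664329. All 7 markers chosen for this line (KRT8, KRT18, EPCAM, CDH2, VIM, PAX2 and LHX1) passed the filter on low counts. Of these, 5 had a mean of at least 10 CPM (CPM, counts scaled by the library size after TMM). KRT8 was at 388 CPM and EPCAM at 197 CPM in the control, and the lowest were PAX2 at 7.12 and LHX1 at 3.02 CPM. Of 8 markers of other cell types, PTPRC, CD3E, HBB and MYH6 did not pass the filter on low counts, and PECAM1 and ALB were below 1 CPM. COL1A1 was at 24.9 CPM and LUM at 4.57 CPM in the control, and neither moved with COX1 silencing (log2 fold changes 0.02 and 0.07). Replicates of a group differed by more than counting noise in all 12 pairs (chi-square per degree of freedom from 3.28 to 16.1), and most between COX1 replicates 1 and 4.

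COX1 is the catalytic core subunit of cytochrome c oxidase (complex IV), the enzyme that passes electrons from cytochrome c to oxygen. It is encoded by mtDNA, while most other subunits of the complex are encoded in the nucleus and imported. Human mtDNA is transcribed from both strands into long precursors, in which tRNAs punctuate the rRNAs and mRNAs and are cut out by endonucleases to release them. MT-CO1 has no tRNA on its own strand directly before it: the genes just upstream, MT-TY, MT-TC, MT-TN and MT-TA, lie on the opposite strand.

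The site of the chimera and its neighbours are shown because the largest changes called below lie at this place. The labels do not say which of the study's COX1 morpholinos was used for RNA-seq. One of them, which the study used for its proteomics of COX1 silencing, is complementary to the first 19 bases of MT-CO1 (GRCh38, chromosome MT, 5904 to 5922, plus strand). The first line gives this morpholino 5′ to 3′ and the second the first 60 bases of MT-CO1 (MT:5904-5963, plus strand), in which capitals mark the complementary bases.
COX1 morpholino: gtcaacggtcggcgaacat
MT-CO1: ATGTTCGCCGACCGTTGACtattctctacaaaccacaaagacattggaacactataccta
The next lines give the 3 tRNA genes upstream as the minus strand encodes them, MT-TY (MT:5826-5891), MT-TC (MT:5761-5826) and MT-TN (MT:5657-5729), from GENCODE 29.
MT-TY: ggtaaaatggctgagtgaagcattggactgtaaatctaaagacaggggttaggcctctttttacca
MT-TC: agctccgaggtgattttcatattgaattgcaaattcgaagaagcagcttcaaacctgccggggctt
MT-TN: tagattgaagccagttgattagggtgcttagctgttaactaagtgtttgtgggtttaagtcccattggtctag
MT-TY ends 12 bases before the first base of MT-CO1. MT-TC and MT-TY share base 5826, and 31 bases separate MT-TN from MT-TC.

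The targeted mRNA was examined first. MT-CO1 (ENSG00000198804, protein-coding, MT:5904-7445) was at 4626, 3961, 4845 and 5661 CPM in COX1 replicates 1 to 4 and at 12360, 11116, 12487 and 12044 CPM in control replicates 1 to 4. All COX1 libraries lay below all control libraries, at 39.4%, 33.7%, 39.5% and 46.2% of the control mean of their batch. The log2 fold change was -1.33 (standard error 0.069, 95% interval -1.47 to -1.19, edgeR quasi-likelihood test, adjusted p = 2.25e-21). Within batch 1 it was -1.45 and within batch 2 it was -1.22. Per kilobase of gene, the level of MT-CO1 was 3096 CPM after COX1 silencing and 7783 CPM in the control. In the control it was the highest of the mtDNA mRNAs on this scale, before MT-CO2 at 6883 CPM per kilobase. After COX1 silencing it stood below MT-CO2 (8426 CPM per kilobase), MT-CO3 (7352), MT-ATP6 (5205) and MT-ND4 (4189).

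A share within a library does not depend on scaling between libraries. MT-CO1 took 12.8%, 12.1%, 12.9% and 12.98% of the counts of the 13 mtDNA mRNAs in COX1 replicates 1 to 4, and 31.9%, 30.1%, 28.9% and 27.5% in control replicates 1 to 4. The mean share fell from 29.6% ± 1.84 (SD, n = 4) to 12.7% ± 0.415 (SD, n = 4), with no overlap (exact two-sided permutation test, p = 0.0286, the smallest that 4 against 4 allows). In batch 1 the means were 12.4% and 31.0% and in batch 2 they were 12.9% and 28.2%. With the replicate number as a block, the exact sign-flip test gave p = 0.125, the smallest that 4 pairs allow. In contrast, genes of mtDNA together took 4.33% ± 0.486 of all counts after COX1 silencing and 4.56% ± 0.414 in the control (SD, n = 4 each), a difference that was not past the threshold (exact permutation test, p = 0.571). Without MT-CO1, mtDNA genes took 3.71%, 3.41%, 3.88% and 4.40% in COX1 libraries and 3.07%, 3.01%, 3.61% and 3.72% in controls, and the groups overlapped (exact permutation test without regard to batch, p = 0.171). Within each batch, however, both COX1 libraries lay above both controls.

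**Figure D1:**
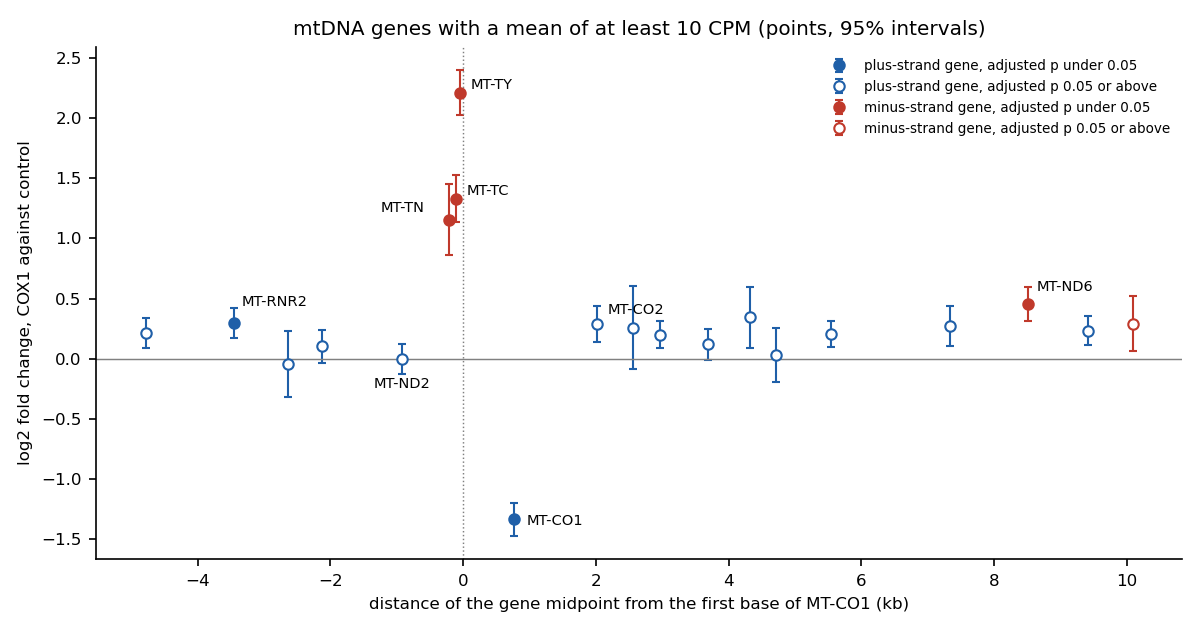
Log2 fold change of COX1 against control libraries (points, 95% intervals as bars) for mtDNA genes with a mean of at least 10 CPM, against the distance of the gene midpoint from the first base of MT-CO1 in kilobases. Blue marks plus-strand and red minus-strand genes, and filled points have an adjusted p under 0.05: MT-CO1 stands at -1.33, and MT-TY, MT-TC and MT-TN, directly upstream, stand at 2.21, 1.33 and 1.15.

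Across all genes, 11 of 20272 tested passed an adjusted p of 0.05 (0.0543%), 7 higher (0.0345%) and 4 lower (0.0197%) after COX1 silencing. At an unadjusted p under 0.05 there were 1508 (7.44%). The number called depended on the processing: it was 7 with no batch term, 24 with DESeq2 and a batch term and 96 with no filter on low counts. Of the 11, 6 are mtDNA genes and 5 are nuclear, although only 34 of the genes tested are encoded in mtDNA. The mtDNA genes called were MT-CO1, which fell, and MT-TY, MT-TC, MT-TN, MT-ND6 and MT-RNR2, which rose. The nuclear genes called were TXNIP, ARRDC4 and MTCO1P12, which fell, and EML2 and CD63, which rose.

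Reads on the 3 tRNA genes upstream of MT-CO1 rose. The estimate was highest for MT-TY, the closest of them, and those of MT-TC and MT-TN had overlapping 95% intervals (1.14 to 1.52 and 0.86 to 1.45). MT-TY, the gene of mitochondrial tRNA for tyrosine, was at 52.2, 63.4, 66.6 and 50.0 CPM in COX1 replicates 1 to 4 and at 11.8, 11.7, 13.7 and 13.2 CPM in the controls. Its log2 fold change was 2.21 (standard error 0.093, adjusted p = 3.61e-25), 2.29 in batch 1 and 2.12 in batch 2. MT-TC, the tRNA gene for cysteine, was at 113.6, 106.8, 119.0 and 107.4 CPM against 35.4, 40.1, 54.7 and 50.1 CPM, which gave 1.33 on the log2 scale (standard error 0.097, adjusted p = 4.05e-15). MT-TN, the tRNA gene for asparagine, was at 29.8, 23.9, 27.5 and 28.9 CPM against 9.67, 10.5, 16.5 and 13.8 CPM, which gave 1.15 (standard error 0.15, adjusted p = 9.94e-07). In each of these genes, all COX1 libraries lay above all control libraries. As raw numbers, the 4 COX1 libraries together held 5083, 9702 and 2376 counts on MT-TY, MT-TC and MT-TN, and the 4 controls 1087, 3871 and 1081. MT-TC and MT-TN moved more in batch 1 (1.55 and 1.41) than in batch 2 (1.11 and 0.89), although the test of the difference between batches did not pass for either (adjusted p = 0.767 and 0.806).

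The next genes upstream were hardly covered. MT-TA, the tRNA gene for alanine, held 6 counts in the 4 COX1 libraries and 3 in the 4 controls. MT-TW, the tRNA gene for tryptophan on the plus strand, held 22 and 5 counts and did not pass the filter. MT-ND2, the mRNA gene upstream of these tRNAs, was at 2275 ± 222 CPM after COX1 silencing and 2276 ± 255 CPM in the control (SD, n = 4 each), a log2 fold change of 0.00 with a 95% interval of -0.12 to 0.12. Downstream of MT-CO1, MT-TS1 and MT-TD held 39 and 120 counts against 35 and 99. MT-CO2, which follows them, had a log2 fold change of 0.29 (adjusted p = 0.182). The sources used here do not say whether counting used the strand. Without it, reads from MT-TY, MT-TC and MT-TN cannot be told apart from plus-strand RNA that runs over them, such as a precursor reaching into MT-CO1. Likewise, a mature tRNA and an uncleaved precursor cannot be told apart in a count per gene.

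**Figure D2:**
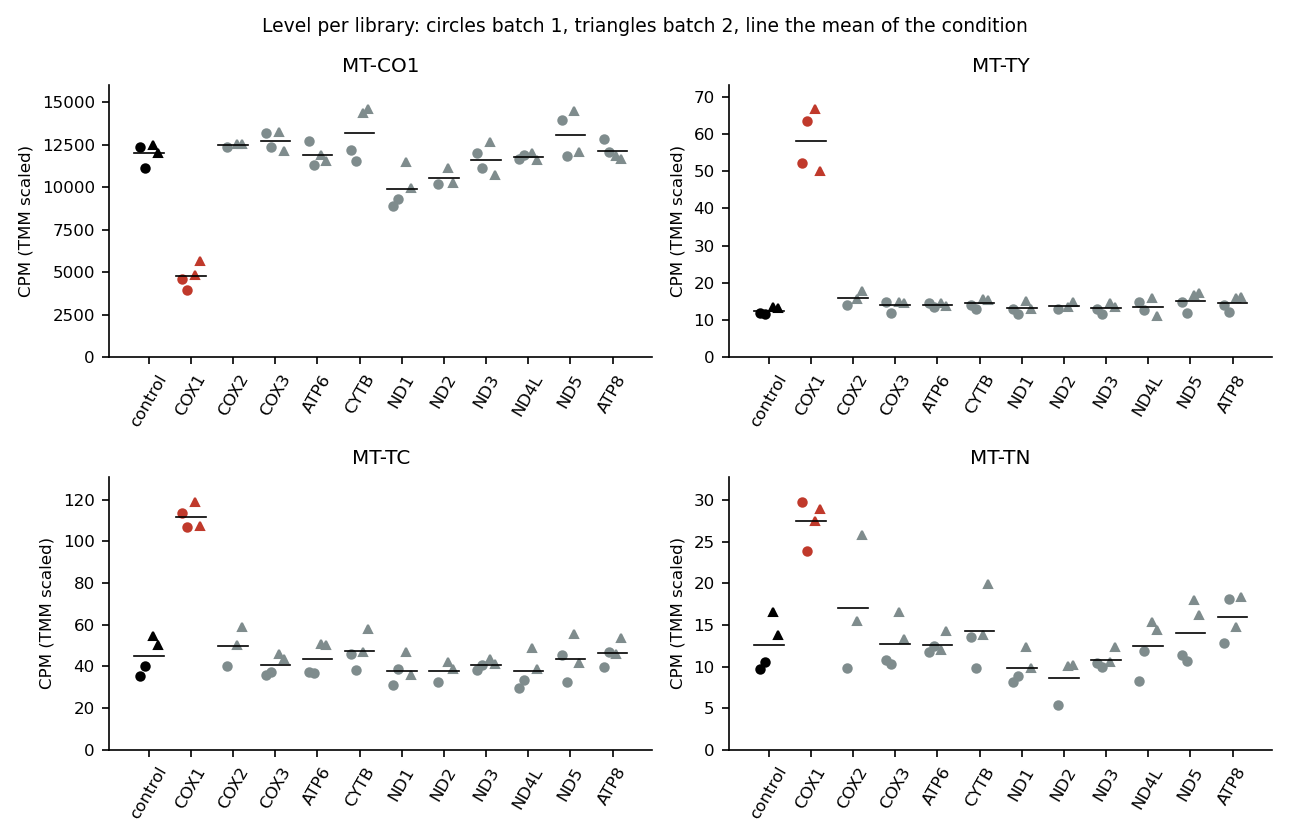
CPM of MT-CO1, MT-TY, MT-TC and MT-TN in each of the 46 libraries (circles batch 1, triangles batch 2, lines the mean of each condition). The COX1 libraries lie below all others for MT-CO1 (at most 5661 CPM, against at least 8924) and above all others for MT-TY (at least 50.0 CPM, against at most 17.9) and MT-TC (at least 106.8, against at most 58.8), and for MT-TN 1 COX2 library reaches 25.8 CPM.

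These 4 genes were also set against the rest of the series, 42 libraries that comprise 38 of the other treatments and the 4 controls. These held 8924 to 14584 CPM of MT-CO1, 11.2 to 17.9 CPM of MT-TY and 29.6 to 58.8 CPM of MT-TC. None of these values reaches into the range of the COX1 libraries. For MT-TN the others spanned 5.40 to 25.8 CPM and the COX1 libraries 23.9 to 29.8, an overlap made by COX2. The mean of the other 10 treatments holds no control library. Against it, the log2 difference was -1.32 for MT-CO1, 2.04 for MT-TY, 1.42 for MT-TC and 1.17 for MT-TN (adjusted p = 4.77e-25, 3.08e-34, 1.12e-24 and 1.50e-12). Against COX2 alone, which silences another complex IV subunit, the differences were -1.38, 1.90, 1.23 and 0.81, and against COX3 alone -1.42, 2.05, 1.48 and 1.15. All of these passed the threshold in the same fit, with adjusted p of at most 0.0126, where 0.0395% of all genes passed against COX2 and 0.0493% against COX3.

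Among the other mtDNA mRNAs, 1 rose. MT-ND6, the complex I subunit gene on the minus strand, was at 775, 779, 624 and 818 CPM in COX1 libraries and at 518, 547, 564 and 552 CPM in controls. All COX1 libraries lay above all controls, and the log2 fold change was 0.46 (standard error 0.070, adjusted p = 8.18e-05). It was 0.54 in batch 1 and 0.37 in batch 2, and batch 2 alone did not give a call (adjusted p = 0.163). Against COX2 and COX3 alone, however, MT-ND6 was higher by 0.20 and 0.21 only (adjusted p = 0.686 and 0.716), since its mean was 654 CPM after COX2 and 647 CPM after COX3 silencing.

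The remaining mtDNA mRNAs were not called in the fit of all libraries. Their log2 fold changes ranged from 0.00 for MT-ND2 to 0.34 for MT-ND3 (95% interval 0.09 to 0.60), with MT-ND4L at 0.03, MT-ND1 at 0.10, MT-CO3 at 0.12, MT-ATP6 and MT-ND4 at 0.20, MT-CYB at 0.23, MT-ATP8 at 0.26, MT-ND5 at 0.27 and MT-CO2 at 0.29. The median over the 13 mRNAs was 0.20, against 0.00 over all genes tested. Of the 13, 12 were above 0, and with RLE size factors or library sizes from nuclear genes 11, since MT-ND2 then had a value just below 0. MT-ND2 was also below 0 with the replicate block, and over the alternatives that used both batches it spanned -0.03 to 0.00. At an unadjusted p under 0.05, 7 were above 0, including MT-ND6. Over all genes tested, 51.3% were above 0 and 4.58% were higher at that p. With no filter on low counts 15 mtDNA genes were called, among them MT-ND3, MT-ND4, MT-ND5, MT-CO2, MT-CYB, MT-ATP6 and MT-ATP8. In a fit of only the 8 libraries, MT-ND3 was called as well (0.34, adjusted p = 0.0200). For MT-CO2, a catalytic subunit of complex IV that carries its CuA centre, the COX1 libraries held 5517, 4726, 5622 and 7188 CPM and the controls 4503, 4163, 4991 and 5176. Each COX1 library was above the control mean of its batch, but the groups overlapped. For MT-CO3, the third mtDNA-encoded subunit of complex IV, the values were 5532, 4983, 5907 and 6634 CPM against 5077, 4633, 5756 and 5741. MT-ND5 was unequal between batches, at 0.48 in batch 1 and 0.05 in batch 2, without a difference past the threshold (adjusted p = 0.767), and in a fit of batch 1 alone it was called (adjusted p = 0.00264). Because the gene pairs MT-ATP8/MT-ATP6 and MT-ND4L/MT-ND4 share bases, their separate values are uncertain.

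Against the mean of the other 10 treatments, 11 genes passed the threshold (0.0543%), 9 higher (0.0444%) and 2 lower (0.00987%) after COX1 silencing. Besides MT-CO1, MT-TY, MT-TC, MT-TN, MT-ND6, MT-RNR2 and MTCO1P12, these were MT-ATP6 (0.24, adjusted p = 5.64e-04), MT-ND4 (0.21, adjusted p = 0.00452), MT-CO2 (0.28, adjusted p = 0.00563) and MT-CYB (0.23, adjusted p = 0.0104). The other treatments include chimeras against ATP6, COX2 and CYTB, which belong to the mean. Against COX2 and COX3 alone, MT-ND4 was higher by 0.19 and 0.12 and MT-CYB by 0.19 and 0.14, none past the threshold. MT-CO2 was higher by 0.51 against COX2 (adjusted p = 2.28e-04) and by 0.14 against COX3 (0.932). MT-ATP6 was higher by 0.11 against COX2 (adjusted p = 0.759) and by 0.53 against COX3 (1.12e-09). Of the 11 genes, 10 are encoded in mtDNA and the remaining one is MTCO1P12. With the replicate number as a block, MT-ND5 passed as well (0.26, adjusted p = 0.00458, against 0.0867 with the batch term). Without COX1 replicate 1 there were 7 calls, with MT-ND4, MT-CO2, MT-RNR2 and MT-CYB lost. Without COX1 replicate 4, these and MT-ATP6 were lost, and without COX1 replicate 2 MT-RNR2.

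Both rRNAs were higher in the COX1 libraries. MT-RNR2, the large rRNA, was at 4575, 4294, 4403 and 4952 CPM against 3503, 3503, 4096 and 3726 CPM, with no overlap and with 0.30 on the log2 scale (standard error 0.063, adjusted p = 0.0299). MT-RNR1, the small rRNA, was at 759 ± 46.4 CPM against 652 ± 31.7 CPM (SD, n = 4 each), also without overlap, but its log2 fold change of 0.22 was not past the threshold (adjusted p = 0.306). The MT-RNR2 call rests on every library but 2: it was kept only without COX1 replicate 3 or control replicate 3, and the adjusted p rose up to 0.214 without another one. Against COX2 or COX3 alone, MT-RNR2 differed by -0.05 and 0.00.

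Of the 22 mtDNA tRNA genes, 19 passed the filter, and 3 were called, those directly upstream of MT-CO1, where 0.0543% of all genes were called. Only 5 of the 19 had a mean of at least 10 CPM, and the other 2 of these were MT-TP (33.6 against 27.4 CPM, log2 fold change 0.29, adjusted p = 0.559) and MT-TL1 (23.9 against 24.6 CPM, -0.04). MT-TP, like MT-ND6, lies on the minus strand. At lower counts, MT-TG stood at 0.63 and MT-TT at 1.02, with wide intervals (0.16 to 1.09 and 0.35 to 1.70) and adjusted p of 0.514 and 0.433. MT-TF stood at 1.13 (0.21 to 2.04) and MT-TV at -0.68 (-1.47 to 0.10), with adjusted p of 0.568 and 0.725. Of the 19, 14 were above 0 and 5 below, where 51.3% of all genes were above 0.

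A nuclear copy of MT-CO1 fell as well. MTCO1P12 (ENSG00000237973, chromosome 1, 631074 to 632616) is an unprocessed pseudogene, a stretch of mtDNA inserted in the nuclear genome. It was at 13.6, 11.98, 14.1 and 19.7 CPM in COX1 libraries and 26.8, 24.5, 25.9 and 28.3 CPM in controls, with no overlap, and its log2 fold change was -0.85 (standard error 0.14, adjusted p = 2.15e-04). It was called in batch 1 alone (-1.01) but not in batch 2 alone (-0.70, adjusted p = 0.146). Its 1543 bases align with MT-CO1 at 98.7% identity with 20 mismatches, it holds the whole site of the morpholino, and 49.4% of its stretches of 50 bases occur in MT-CO1 without a mismatch. Its count may therefore hold reads of MT-CO1, and the 2 cannot be told apart in these counts. A more distant copy, MTCO1P28, at 77.5% identity and with 8 mismatches in the best match to the site, was at 0.69 and 0.63 CPM.

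The complement of the morpholino was searched without gaps in all GENCODE 29 transcripts of 20263 genes tested. It occurred in full in MT-CO1 and MTCO1P12, both of which were called lower. No gene held it with 1 to 2 mismatches. With 3 mismatches it occurred in ARHGAP1 (log2 fold change -0.03) and ZNF502 (0.07), and with 4 in 15 genes, whose log2 fold changes ran from -0.14 to 0.20, none of them called. Runs of 11 or more matching bases occurred in 25 genes, of which MT-CO1 and MTCO1P12 were again the genes called. Over all genes searched, 11 of 20263 were called, so a lack of calls in classes this small is no result about them. MT-CO1 and MTCO1P12 are not independent, since reads of MT-CO1 may be counted on MTCO1P12. The best matches in TXNIP, ARRDC4, CD63 and EML2 had 7 mismatches each, the median over all genes searched.

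The remaining 4 nuclear calls are genes that differed from the controls and were not called against the other treatments. TXNIP (thioredoxin-interacting protein, an arrestin-like protein that restrains glucose uptake; chromosome 1, 145992435 to 145996600) was at 18.4, 19.01, 22.9 and 31.6 CPM in COX1 libraries and 35.1, 33.1, 46.2 and 41.9 CPM in controls. The groups did not overlap, and the log2 fold change was -0.78 (standard error 0.079, 95% interval -0.94 to -0.62, adjusted p = 9.34e-10). It was -0.87 in batch 1 and -0.70 in batch 2. ARRDC4, a related arrestin-domain protein (chromosome 15, 97960698 to 97973838), was at 41.2, 42.9, 45.96 and 54.1 CPM against 59.2, 62.8, 65.03 and 68.7 CPM. Again there was no overlap, and the log2 fold change was -0.48 (standard error 0.064, adjusted p = 3.00e-06). Lack of overlap alone was more common than a call: 1.13% of all genes tested had every COX1 library below every control and 1.40% every COX1 library above.

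CD63, a tetraspanin of late endosomes and lysosomes (chromosome 12, 55725323 to 55729707), was at 237, 266, 230 and 241 CPM after COX1 silencing and 198, 214, 174 and 166 CPM in controls. It rose by 0.37 on the log2 scale (standard error 0.064, adjusted p = 6.39e-04), by 0.29 in batch 1 and 0.47 in batch 2. EML2, a microtubule-associated protein (chromosome 19, 45606994 to 45645629), was at 29.7, 33.3, 38.9 and 43.8 CPM against 26.7, 25.2, 27.7 and 26.8 CPM, and rose by 0.44 on the log2 scale (standard error 0.074, adjusted p = 4.90e-04). Its value was 0.28 in batch 1 and 0.60 in batch 2. For both genes all COX1 libraries lay above all controls, and the difference between batches did not pass the threshold (adjusted p = 0.848 for CD63 and 0.789 for EML2). Within batch 1 alone neither was called (CD63 adjusted p = 0.958, EML2 adjusted p = 0.999), while within batch 2 alone both were (4.33e-04 and 0.0348). TXNIP was called within each batch, and ARRDC4 in batch 1 (adjusted p = 0.00809) but not in batch 2 (0.0595). With no batch term in the fit, TXNIP, CD63 and EML2 were not called.

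The control was the extreme condition for these genes. Of the 12 condition means, that of the control was the highest for TXNIP (39.1 CPM) and ARRDC4 (63.9 CPM) and the lowest for CD63 (188 CPM) and EML2 (26.6 CPM). Among the 11 treatments, COX1 was the lowest for TXNIP at 23.0 ± 6.10 CPM (SD, n = 4), next to CYTB at 23.6 ± 4.19, ND4L at 23.8 ± 3.21 and ND5 at 24.0 ± 4.81 CPM (SD, n = 4 each), differences smaller than the spread between replicates. Against the mean of the other 10 treatments, the COX1 difference was -0.25 for TXNIP (adjusted p = 0.183), -0.10 for ARRDC4 (1.00), 0.07 for CD63 (1.00) and 0.14 for EML2 (1.00), none past the threshold. For TXNIP this rests on COX1 replicate 4, the highest of its group, without which the difference was -0.37 and passed the threshold. The morpholino as such is shared by all treatments and missing from the control, so its part in these 4 differences cannot be told apart from that of COX1 silencing by the comparison with the control.

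**Figure D3:**
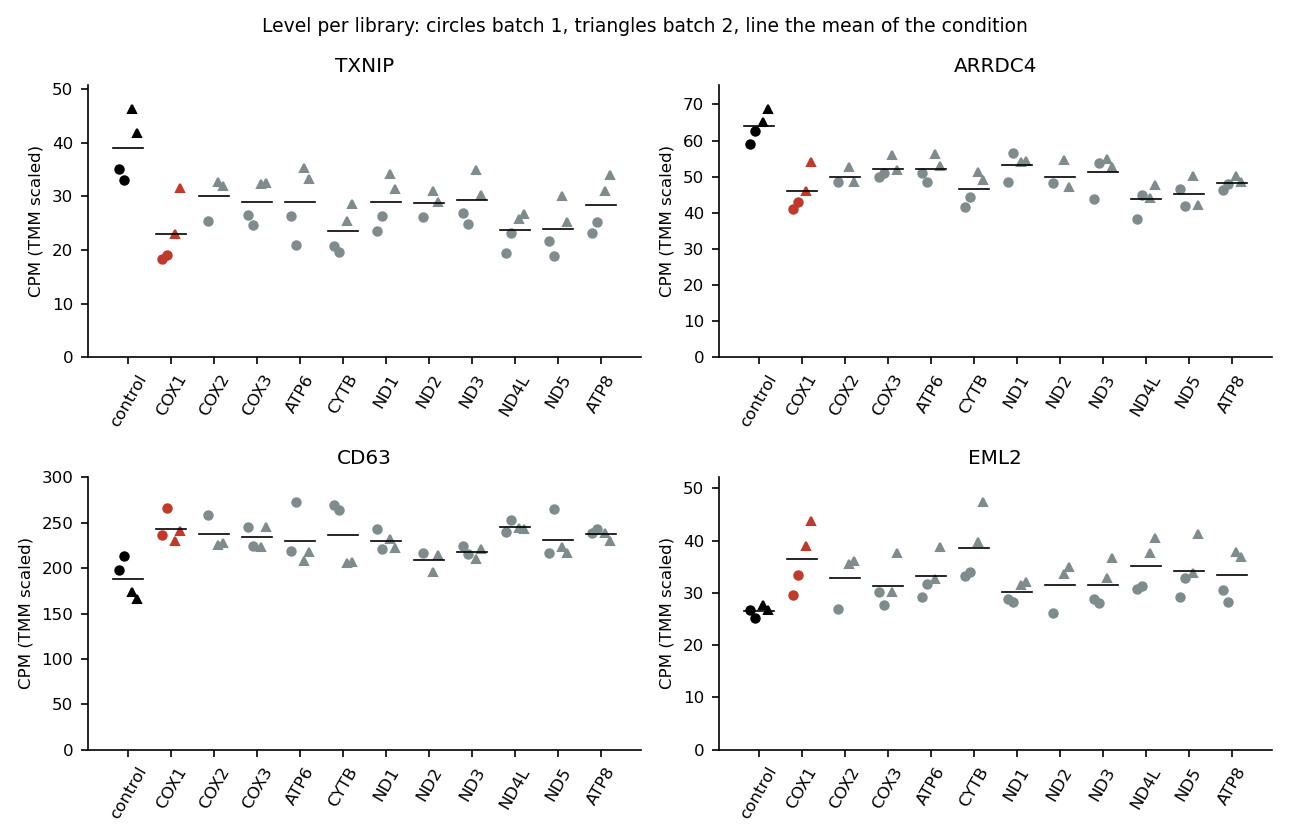
CPM of TXNIP, ARRDC4, CD63 and EML2 in each of the 46 libraries (circles batch 1, triangles batch 2, lines the mean of each condition). The control mean is the highest of 12 for TXNIP (39.1 CPM) and ARRDC4 (63.9 CPM) and the lowest for CD63 (188 CPM) and EML2 (26.6 CPM), and the COX1 libraries lie within the range of the other treatments, except for 1 of them at 18.4 CPM of TXNIP, below the lowest at 18.96.

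TXNIP and ARRDC4 are both known targets of MondoA, a transcription factor that responds to glucose phosphates and binds as a dimer with Mlx. As they fell together, the sequences around their starts are shown (RefSeq, GRCh38.p14), with motifs in capitals. The motifs searched on both strands were CACGTG, an E-box, and 2 copies of CACGNG with 5 bases between them. The pair was picked because TXNIP is known to carry it, so its presence there is no finding.
TXNIP, chr1:145996530-145996829, minus strand: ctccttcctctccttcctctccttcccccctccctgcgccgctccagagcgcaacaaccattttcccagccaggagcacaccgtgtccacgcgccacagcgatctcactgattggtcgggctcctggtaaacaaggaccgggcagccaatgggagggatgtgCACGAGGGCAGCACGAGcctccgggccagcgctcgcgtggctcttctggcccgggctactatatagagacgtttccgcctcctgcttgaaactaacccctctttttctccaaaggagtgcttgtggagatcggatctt
ARRDC4, chr15:97960453-97960752, plus strand: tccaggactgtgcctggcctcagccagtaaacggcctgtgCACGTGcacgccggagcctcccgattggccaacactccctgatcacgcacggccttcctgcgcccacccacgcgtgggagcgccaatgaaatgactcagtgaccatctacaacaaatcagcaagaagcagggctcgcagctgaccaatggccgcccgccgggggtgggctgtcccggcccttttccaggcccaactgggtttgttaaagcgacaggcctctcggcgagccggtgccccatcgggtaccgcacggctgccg
The pair stands at -88 from the start of TXNIP and occurs in 0.0570% of 35116 promoters of this length. CACGTG stands at -210 in ARRDC4 and occurs in 7.26% of them. The genes of these factors were not called: MLX was at -0.09, MLXIP, the gene of MondoA, at 0.03 and MLXIPL, the gene of its paralogue ChREBP, at -0.02 on the log2 scale.

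Below the threshold, the 10 protein-coding genes with a mean of at least 10 CPM that came next by unadjusted p had log2 fold changes between -0.31 and 0.39 and adjusted p from 0.0666 to 0.129. They were PROCR (endothelial protein C receptor), AARS (cytosolic alanyl-tRNA synthetase), DRAP1 (a transcriptional corepressor), SLC44A2 (a choline transporter), MYLIP (a ubiquitin ligase of the LDL receptor), NOP53 (a ribosome biogenesis factor), MRPL24 (a protein of the mitochondrial ribosome), PLA2G16, RILPL1 and TCEAL4. MYLIP was the one with a negative value (-0.31, 23.1 against 28.5 CPM). PROCR, at 28.3, 29.8, 25.0 and 26.6 CPM against 22.7, 23.3, 20.4 and 21.1 CPM, had no overlap and a log2 fold change of 0.32 (adjusted p = 0.0666, and 0.0330 with the replicate number as a block). DESeq2 with a batch term, which called 24 genes in all, called all 10 (adjusted p of 0.0129 for PROCR to 0.0443 for TCEAL4). The 10 were picked by their p in the same counts, so this is no separate support for them. Against the other 10 treatments their differences ran from -0.19 to 0.19, and none was called.

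For expressed genes the intervals were narrow. Of 10430 genes with a mean of at least 10 CPM, nuclear and mtDNA genes together, 10342 (99.2%) had a 95% interval of the log2 fold change that lay wholly between -0.5 and 0.5, and 9 had an estimate beyond it, including MT-CO1, MT-TY, MT-TC and MT-TN. Their median standard error was 0.066 and the median size of their log2 fold changes was 0.053. Over all genes tested the share was lower, 62.2%, since low counts widen the intervals.

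**Figure D4:**
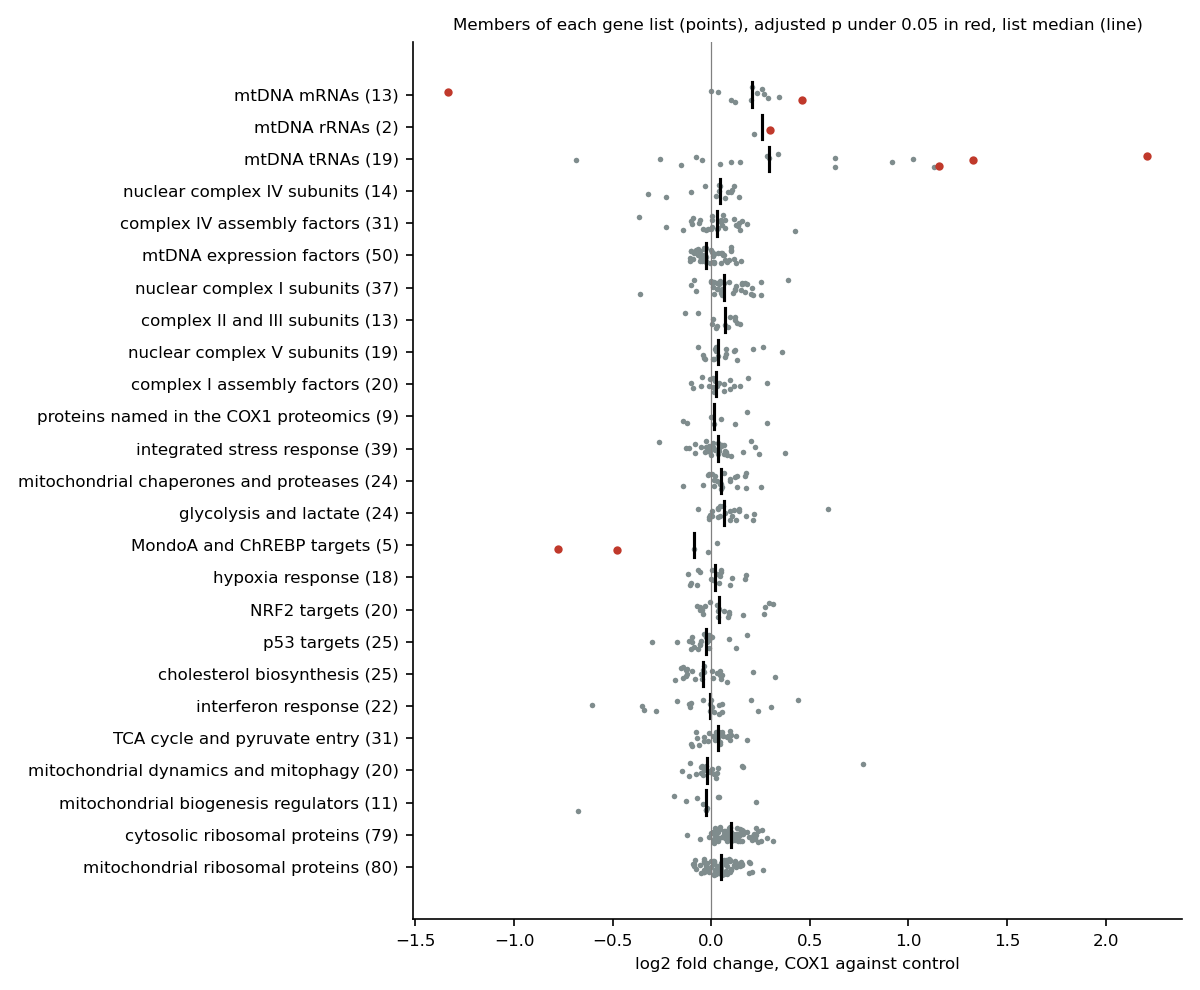
Log2 fold changes of COX1 against control libraries for the tested members of each gene list (points, number tested in brackets), with genes at an adjusted p under 0.05 in red and the list median as a line. Outside the mtDNA lists, only TXNIP and ARRDC4 are red, and the list medians lie between -0.09 and 0.10. The list named for MondoA and ChREBP targets, with the median of -0.09, also holds MLXIP, the gene of MondoA.

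Genes of complex IV that the nucleus encodes were followed as a group, since COX1 is their partner. None of 14 tested subunits and none of 31 tested assembly factors was called, where 0.0543% of all genes were, so that these counts are no result about the lists. The subunits had a median log2 fold change of 0.04, with 10 above 0, against 0.00 and 51.3% above 0 over all genes tested. Their median was -0.02 in batch 1 and 0.15 in batch 2, and by library -0.07, 0.02, 0.07 and 0.19 in COX1 replicates 1 to 4. Among subunits with at least 10 CPM, COX7C was the highest (251 ± 30.7 against 228 ± 16.6 CPM, 0.14) and COX7B the lowest (104 ± 2.35 against 111 ± 12.7 CPM, -0.10; SD, n = 4 each). COX4I1, the regulatory subunit, stood at 0.12. Among assembly factors with at least 10 CPM, COX17, a copper chaperone, was the highest at 0.18 (95% interval -0.02 to 0.38) and TMEM223 the lowest at -0.10. The median over assembly factors was 0.03, with 20 of 31 above 0.

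The study's proteomics of COX1 silencing named 9 proteins. None of their transcripts was called, against 0.0543% of all genes, and their values are given as a description. Of the complex IV biogenesis factors, COA3 had a log2 fold change of 0.01 (95% interval -0.12 to 0.13), COX14 0.05 (-0.17 to 0.26), CMC1 0.00 (-0.26 to 0.26) and PET100 -0.14 (-0.50 to 0.22). ZNF703, a zinc finger protein, was at 200, 196, 223 and 231 CPM in COX1 libraries and 241, 219, 231 and 230 CPM in controls, a log2 fold change of -0.12 (-0.26 to 0.02). PNKD was at 0.12, SMIM26 at 0.18, TMEM186, an assembly factor of complex I, at 0.28 (0.08 to 0.49, adjusted p = 0.505) and DNM1L, the gene of the fission protein DRP1, at 0.02.

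Apart from TXNIP and ARRDC4, the nuclear lists held no call in the edgeR fit of all libraries. Both stand in the list named for MondoA and ChREBP targets, which was chosen with earlier results known. It has 5 tested members and also holds MLXIP, the gene of MondoA, so it is not a set of targets alone. Over all genes tested, 0.0543% were called and 51.3% were above 0, so a lack of calls is no result about a list. Glycolysis and lactate genes had 20 of 24 above 0 and a median of 0.07. At an unadjusted p under 0.05, 9 of them were higher and none lower, against 4.58% higher and 2.86% lower over all genes. PFKP was called by DESeq2 with a batch term (0.17, adjusted p = 0.0339). ENO2, PFKP, LDHB, HK1 and HK2 stood at 0.21, 0.18, 0.22, 0.14 and 0.14, and GAPDH and TPI1 at -0.01 and 0.00. Against the other 10 treatments, the median of this list was -0.02. The integrated stress response list, which holds targets of ATF4, had a median of 0.04. AARS (0.22), STC2 (0.20) and PCK2 (0.24) were the members at an unadjusted p under 0.05. These are 3 of 39, all higher, against 4.58% higher over all genes. None of the 39 was called, where 0.0543% of all genes were. Among p53 targets, 4 of 25 were above 0, with a median of -0.03 and values from -0.17 for SESN1 to 0.18 for GADD45A among members with at least 10 CPM. Medians for NRF2, hypoxia, interferon and cholesterol lists were 0.04, 0.02, 0.00 and -0.04. Nuclear factors of mtDNA expression, which include its polymerase, processing and RNA-stability factors, had a median of -0.02, and all 50 had a 95% interval within -0.5 to 0.5.

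Cytosolic ribosomal protein genes had a median log2 fold change of 0.10, with 75 of 79 above 0, against 51.3% of all genes. None was called, where 0.0543% of all genes were. At an unadjusted p under 0.05, 20 of the 79 were higher and none lower, against 4.58% and 2.86% of all genes. The median of this list was 0.00 in batch 1 and 0.21 in batch 2. By library, relative to the control of its batch, it was -0.04, 0.04, 0.09 and 0.32 in COX1 replicates 1 to 4. COX1 replicate 4, the library that differs most from COX1 replicate 1, thus carried the highest value. Nuclear complex I subunits, with a median of 0.06 and 32 of 37 above 0, had -0.04, 0.03, 0.15 and 0.22 in the same libraries. Of these 37, 8 were higher and none lower at an unadjusted p under 0.05. NDUFS6 was the highest member at 0.39 (adjusted p = 0.261). It was called in the fit of only the 8 libraries (0.39, adjusted p = 0.0238) and with no filter. Mitochondrial ribosomal protein genes had -0.04, 0.00, 0.09 and 0.14, and nuclear complex V subunits -0.05, -0.03, 0.08 and 0.21. The part of the batch or of a single library in these medians was not tested.

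The COX1 effect was compared between batches for each gene. No gene of 20272 passed the threshold for a difference (0.00%), with the lowest adjusted p at 0.329, while 1258 genes (6.21%) had an unadjusted p under 0.05. DESeq2 with an interaction term called 1 gene, HES4 (a transcriptional repressor of the Hairy family, 0.80 higher in batch 2, adjusted p = 0.00401), which was chosen after its value was seen. Across genes, which are not independent replicates, the log2 fold changes of the batches had a Pearson r of 0.160 for genes with a mean of at least 10 CPM and 0.0999 for the nuclear ones among them, and of 0.0141 over all genes tested, as a description. The batches share no library, and each of them alone gave MT-CO1, MT-TY, MT-TC, MT-TN and TXNIP as calls.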

How the data were processed

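The authors enriched RNA from HEK293T cells for poly(A) tails and deposited the number of reads counted per gene, without normalization. The submitters' processing notes name GRCh38.p12, DESeq2 1.40.2, limma 3.56.2 and R 4.3.0, and gene identifiers match GENCODE 29. The aligner, the counter and the use of strand are not given in the sources used here; the labels describe single-end and the paper paired-end reads. A gene length in bases, listed beside the counts, served for levels per kilobase.

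All 46 libraries entered 1 fit of edgeR 4.0.16 under R 4.3.3, with TMM scaling, terms for condition and batch and the quasi-likelihood test, on the 20272 genes that filterByExpr kept at a minimum count of 10, and p-values were adjusted by Benjamini-Hochberg over all of them. The CPM and fold changes printed come from the same deposited counts. Shares were compared by exact permutation over samples. The script was tested on simulated data. Members were chosen by their labels, though with earlier results of these data known, as were the gene lists and tests. Named genes were mtDNA genes, all genes called, the 10 next by p, list extremes with at least 10 CPM and the proteins from the proteomics. Same-numbered deviations of COX1 and control replicates from the group means correlated at 0.261 to 0.652. With the batch removed the range was -0.180 to 0.252, so the replicate numbers showed the shared batch and no clear pairing beyond it. Alternatives were no batch term, a replicate block, DESeq2 1.42.0, other scalings and filters, subsets of libraries and each COX1 and control replicate left out.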

Additional observations from a re-analysis of the deposited data

Results flagged for a closer look

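Of 206 sets of 4 libraries examined for a value far from the other 3, 5 (2.43%) held one, and chance gives about 1 in 20. CMC1 was at 20.4 CPM in COX1 replicate 4 and at 13.3 to 14.4 CPM in the other COX1 libraries. PNKD was at 61.1 CPM in control replicate 1 and at 48.0 to 49.5 CPM in the other controls, GRPEL2 at 61.1 CPM in control replicate 3 against 53.3 to 54.1 CPM, and P4HA2 at 46.3 CPM in control replicate 2 against 43.4 to 43.6 CPM. MT-TA was at 0.148 CPM in control replicate 3 and at 0 in the other controls, which rests on 3 counts.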

How the results depend on the processing

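The count of genes called against control moved from 11 to 7 with no batch term, 24 with DESeq2 and a batch term, 31 with DESeq2 on counts corrected by removeBatchEffect, 96 with no filter on low counts, 17 in batch 2 alone, 4 with a minimum absolute log2 fold change of 0.5 and 5 for nuclear genes alone (the last chosen after seeing the data, and limited to nuclear genes by construction). Without a filter 81 of the 96 were nuclear, 70 of them higher. Leaving out 1 COX1 or control library gave 10 to 14 calls. Against the other 10 treatments, 11 calls became 6 with no batch term, 6 with DESeq2 without a batch term, 28 with no filter, 6 in batch 2 alone and 5 with the minimum of 0.5, and 7 to 12 without 1 library. For the difference between batches, 0 became 26 with no filter and 1 with DESeq2. With the replicate block, 12 genes were called against control, the added one being PROCR, and the block changed no other call named against control. The cause of these changes was not tested.

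The log2 fold change of MT-CO1 stayed between -1.41 and -1.27 without 1 library. The difference in the share of MT-CO1 in the counts of the 13 mtDNA mRNAs was -18.6 percentage points in batch 1 alone and -15.3 in batch 2 alone (exact p = 0.333 each, the smallest that 2 against 2 allows) and -17.0 with the replicate block (exact p = 0.125, the smallest possible); without 1 library it stayed between -17.6 and -16.2. The share of mtDNA genes in all counts differed by -0.237 percentage points and, without MT-CO1, by 0.497; without 1 library it stayed between -0.449 and -0.0623. Of 13 alternatives to the comparison with control that used both batches, all called MT-TY, MT-TC and MT-TN. TXNIP and CD63 were called in 11 each, EML2 in 10 and MT-RNR2 in 8. With no batch term, TXNIP, CD63, EML2 and MT-RNR2 lost their calls. Over the alternatives their log2 fold changes spanned -0.79 to -0.77, 0.36 to 0.37, 0.43 to 0.45 and 0.26 to 0.30. With the minimum of 0.5, no nuclear gene was called. Counting noise limits tRNA genes below 10 CPM.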
